A study of Danio rerio with 6 samples.

Results

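The hormonal stress axis of the zebrafish and its response to glucocorticoids were followed through 10 genes: the hormone genes crhb and pomca, the receptor gene mc2r, the cortisol genes star and hsd11b2, the receptor genes nr3c1 and nr3c2, and the responsive genes fkbp5, klf9 and tsc22d3. The genes were chosen by name, with earlier results of these data known, and all 10 were found among the 32520 genes listed in each deposited table, by looking up the symbol of each gene identifier. Their RNA was compared between larvae labelled as lacking stim2a and stim2b and larvae labelled as wild type at both loci.

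The axis starts in the hypothalamus, where neurons make corticotropin-releasing hormone. This hormone drives corticotroph cells of the pituitary to cut proopiomelanocortin into adrenocorticotropic hormone, which acts through the melanocortin receptor Mc2r on the interrenal cells of the head kidney, the fish counterpart of the adrenal cortex, to start cortisol synthesis. Cortisol binds the glucocorticoid and mineralocorticoid receptors, nuclear receptors that switch target genes on or off and that also damp the hormone genes above them.

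The study pooled 30 whole, untreated zebrafish larvae at 5 days post fertilization into each RNA sample. There were 3 samples labelled (stim2a;stim2b)−/−, mutant on both copies of both genes, and 3 labelled (stim2a;stim2b)+/+, numbered 1 to 3 in each group; the labels do not describe the mutant alleles and name no other allele or agent for either group. STIM2 proteins sense calcium in the endoplasmic reticulum and open calcium channels of the plasma membrane. No label ties a pool to its own clutch, so the p-values speak for the spread between these 6 samples, which may be partly technical.

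RNA of the targeted genes ran against the labels. In replicates 1, 2 and 3, stim2a stood at 0.329, 0.252 and 0.403 TPM in the samples labelled +/+ and at 1.31, 1.41 and 1.199 TPM in libraries labelled −/−, where TPM is the share of all transcripts, scaled for length and to the same total in each library. For stim2b the values were 0.542, 0.475 and 0.722 TPM against 1.52, 1.34 and 1.85 TPM. All these values labelled +/+ were under 1 TPM. Both genes thus passed the test's filter of 1 TPM in at least 3 libraries only through libraries labelled −/−. Both genes were thus higher where the labels say they were mutated (limma log2 fold change 1.13 ± 0.13 (SE), adjusted p = 0.00213, and 0.94 ± 0.15 (SE), adjusted p = 0.00871), and stim2b missed the threshold without replicate 2 labelled +/+ (adjusted p = 0.0546). The groups are therefore called libraries labelled +/+ and libraries labelled −/−, and each direction below is that of the labels. Whether the labels were exchanged was not tested. An exchange would reverse every direction given below, including each "rose" and "fell". Markers of skeletal muscle, skin, liver and neurons were present in every library, as fits the label of whole larvae. Between 19582 and 20363 genes reached 1 TPM per library. Absolute depth is not known from TPM, and the median ratio of coverage to FPKM, which follows depth, lay between 4.48 and 5.73.

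RNA of crhb, pomca and both receptor genes was more abundant in libraries labelled −/−, while star, hsd11b2 and fkbp5 were not called different. Other genes of cortisol synthesis and turnover were called in both directions, as given further below. Of the 10 genes, 9 reached the filter of 1 TPM in at least 3 libraries, and 5 of these passed the limma test at an adjusted p under 0.05, all higher in libraries labelled −/−: pomca, nr3c1, nr3c2, crhb and tsc22d3. Among all 20330 genes tested, 30.8% were called higher and 8.76% lower. The median log2 fold change, on the scale of log2(TPM + 0.5), was 0.44 over the 9 genes and 0.22 over all tested genes, and an upward call was common in these libraries. Dividing each library by its median gene ratio, a rescaling that brings the median of all genes to 0.02, left 22.8% of genes called higher and 21.6% lower. On that scale 3 of the 9 genes were higher (pomca, nr3c1 and crhb) and klf9 was lower. With the replicate number as a block, 45.6% of all genes were called higher and 13.3% lower, and the same 5 of the 9 genes passed as without it. Without replicate 1 or replicate 2 labelled +/+, calls over all genes fell from 8046 to 606 and 430, so most calls of any gene were lost in those fits.

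In 5 of the 9 tested genes every library labelled −/− lay above every library labelled +/+, and in klf9 every one lay below, against 39.5% and 16.3% of all tested genes. An exact permutation test over libraries, two-sided, returned p = 0.1 for these 6 genes and for mc2r, the lowest value possible with 3 libraries a side. For fkbp5 and star the exact permutation p was 0.3, and for hsd11b2 it was 0.9. These are whole larvae, in which fewer cells of a type and less RNA per cell cannot be told apart.

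**Figure D1:**
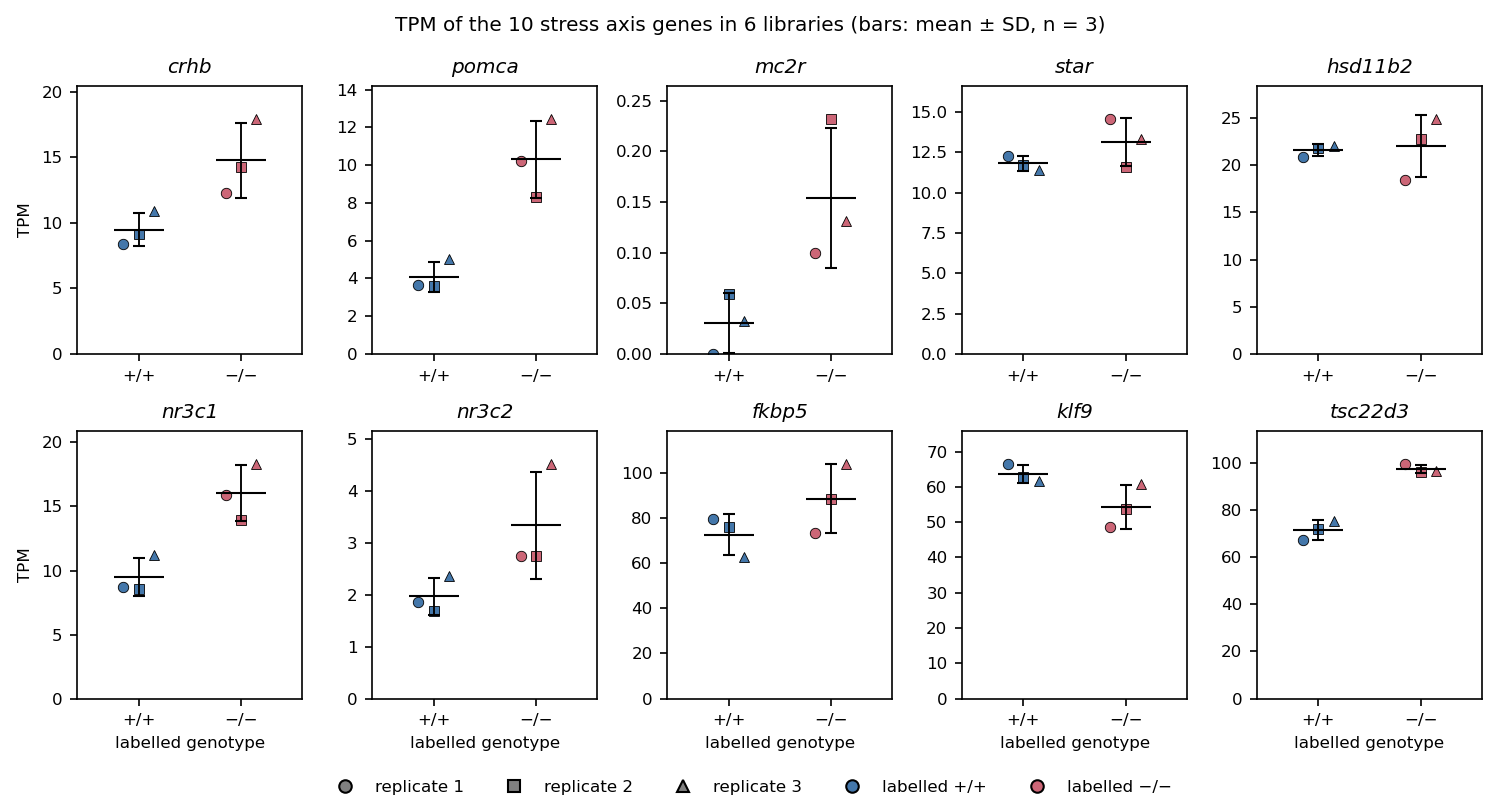
TPM of the 10 genes (vertical axis, each panel on its own scale from 0) in libraries labelled +/+ (blue) and −/− (red), where the marker shape gives the replicate number and the bars the mean ± SD of 3 libraries. The groups stand apart for crhb, pomca, mc2r, nr3c1, nr3c2, klf9 and tsc22d3, and they overlap for star, hsd11b2 and fkbp5.

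**Figure D2:**
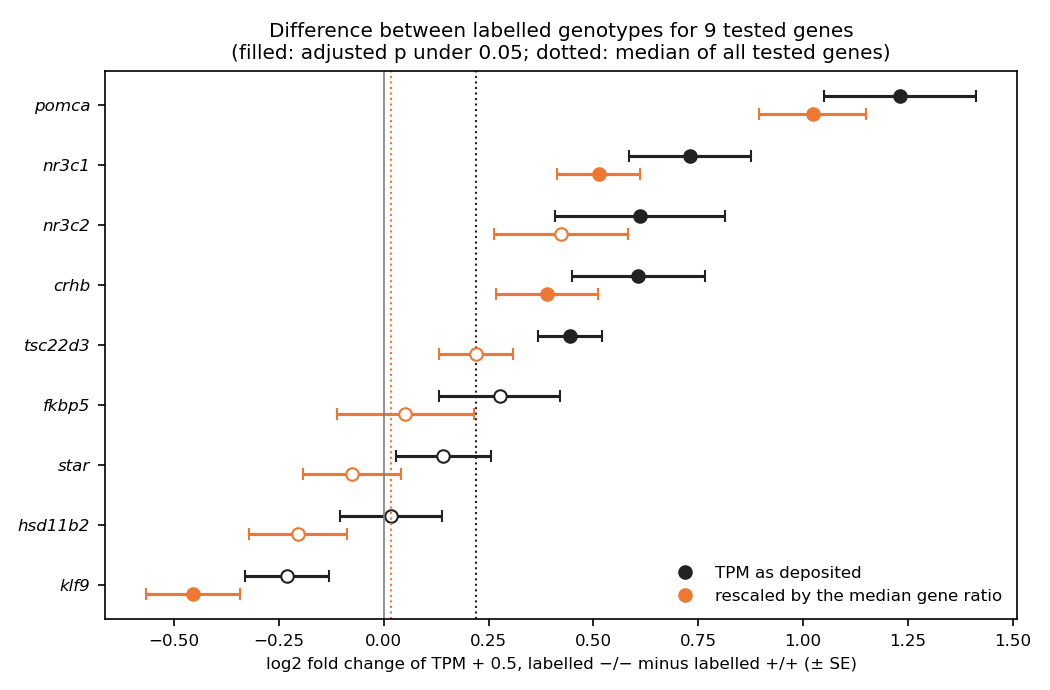
Log2 fold change of TPM + 0.5, labelled −/− minus labelled +/+, with its SE for the 9 tested genes, from deposited TPM (black) and from TPM rescaled by the median gene ratio (orange); filled points have an adjusted p under 0.05 and dotted lines mark the median of all tested genes. Rescaling moves every point to the left, which takes nr3c2 and tsc22d3 out of the calls, brings klf9 in as lower, and turns the sign of star and hsd11b2.

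The precursor gene pomca differed most. It encodes proopiomelanocortin, the source of adrenocorticotropic hormone and of melanocyte-stimulating hormone (ENSDARG00000043135.7, chromosome 17, 33226955 to 33230039, plus strand, coordinates as the deposited tables give them). Its level was 3.67, 3.60 and 5.02 TPM in replicates 1, 2 and 3 labelled +/+ and 10.2, 8.33 and 12.4 TPM in libraries labelled −/−. The lowest library labelled −/− thus stood well above the highest labelled +/+, and the means were 4.10 ± 0.799 and 10.3 ± 2.05 TPM (SD, n = 3 each), which differ 2.52-fold. The limma log2 fold change was 1.23 ± 0.18 (SE), adjusted p = 0.00705, larger than that of 98.1% of tested genes. It stayed past the threshold in each of the 6 fits without 1 library, between 1.09 and 1.37, with a highest adjusted p of 0.0480, and was 1.02 after rescaling (adjusted p = 0.00192). A gene on the opposite strand, si:rp71-36d5.4, overlaps pomca. The library kit marked strand, per the labels, but no source used here says whether the counting used it. That neighbour stood at 0.668 to 1.05 TPM in libraries labelled +/+ and 1.24 to 1.63 TPM in libraries labelled −/−.

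The second proopiomelanocortin gene, pomcb, went the other way in its values. It stood at 1.17, 0.926 and 0.821 TPM in libraries labelled +/+ and at 0.516, 0.646 and 0.633 TPM in libraries labelled −/−. The groups did not overlap, but pomcb was under the filter and was not tested. The ratio of pomca to pomcb was 3.13, 3.89 and 6.11 in libraries labelled +/+ and 19.8, 12.9 and 19.6 in libraries labelled −/−.

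Corticotropin-releasing hormone itself is encoded by crhb (ENSDARG00000027657.6, chromosome 24, 24847683 to 24881996, minus strand), the better expressed of its paralogs here. The level of crhb was 8.42, 9.13 and 10.9 TPM in libraries labelled +/+ and 12.3, 14.2 and 17.9 TPM in libraries labelled −/−. All 3 libraries labelled −/− were the higher ones, although the gap between the groups was narrow, and the means were 9.47 ± 1.26 and 14.8 ± 2.85 TPM (SD, n = 3 each). The log2 fold change by limma was 0.61 ± 0.16 (SE), adjusted p = 0.0246, and 0.39 after rescaling (adjusted p = 0.0319). This call was lost without replicate 1 labelled +/+ (adjusted p = 0.0967 by limma), without replicate 2 labelled +/+ (0.0925) and without replicate 3 labelled −/− (0.0520). The paralog crha stood between 0.413 and 0.683 TPM in libraries labelled +/+ and between 0.816 and 0.895 TPM in libraries labelled −/−, and it was not tested. The binding protein gene crhbp, whose product holds the hormone outside cells, stood at 22.6 ± 0.956 and 21.7 ± 0.533 TPM (SD, n = 3 each; limma adjusted p = 0.613), and its difference of −0.06 (log2) became −0.28 after rescaling (adjusted p = 0.0553).

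The receptor for adrenocorticotropic hormone was barely detected in whole larvae. The gene mc2r (ENSDARG00000054949.3, chromosome 16, 30575901 to 30577136, plus strand) was listed at 0, 0.0588 and 0.0326 TPM in libraries labelled +/+ and at 0.0996, 0.232 and 0.131 TPM in libraries labelled −/−. Every library labelled −/− was the higher, at levels far under the filter of 1 TPM, and the mean over all libraries in the authors' deposited table was only 5.42 normalized counts. Tested without that filter, mc2r did not pass in limma (log2 fold change 0.30 ± 0.09 (SE), adjusted p = 0.0548). In the authors' deposited table its adjusted p was 0.230. No fold is given at this level. Its accessory protein gene mrap, which carries the receptor to the cell surface, was also low, at 0.458 to 0.707 TPM in libraries labelled +/+ and 0.289 to 0.888 TPM in libraries labelled −/−.

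RNA of star, which acts at the first step of steroid production, was not called different. The gene star (ENSDARG00000006137.7, chromosome 8, 44703854 to 44707937, plus strand) encodes the steroidogenic acute regulatory protein, which moves cholesterol into mitochondria. It stood at 12.3, 11.7 and 11.4 TPM in libraries labelled +/+ and at 14.5, 11.6 and 13.3 TPM in libraries labelled −/−. Replicate 2 labelled −/− fell among the libraries labelled +/+, so the groups overlapped. The limma log2 fold change was 0.14 ± 0.11 (SE), adjusted p = 0.325, and it turned to −0.08 after rescaling (adjusted p = 0.609).

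The main cortisol-inactivating gene was likewise not called. The gene hsd11b2 (ENSDARG00000001975.10, chromosome 7, 35112052 to 35126374, minus strand) encodes the dehydrogenase that turns cortisol into inactive cortisone. Its values were 20.9, 21.9 and 22.0 TPM in libraries labelled +/+ and 18.4, 22.8 and 24.8 TPM in libraries labelled −/−. The libraries labelled −/− spread to both sides of the others, with an SD of 3.27 TPM against 0.601 TPM (n = 3 each). The log2 fold change of 0.02 ± 0.12 (SE) had a limma adjusted p of 0.914 and became −0.20 ± 0.12 after rescaling (adjusted p = 0.178). Leaving out 1 library gave values between −0.07 and 0.14, none of them called.

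Both steroid receptor genes were called higher. The glucocorticoid receptor gene nr3c1 (ENSDARG00000025032.10, chromosome 14, 23746710 to 23801389, minus strand) stood at 8.74, 8.53 and 11.2 TPM in libraries labelled +/+ and at 15.9, 14.0 and 18.3 TPM in libraries labelled −/−. Every library labelled −/− exceeded every one labelled +/+, and the means of 9.50 ± 1.50 and 16.1 ± 2.17 TPM (SD, n = 3 each) differed 1.69-fold. By limma the log2 fold change was 0.73 ± 0.15 (SE), adjusted p = 0.0144, and 0.51 after rescaling (adjusted p = 0.00767). It missed the threshold without replicate 1 labelled +/+ (adjusted p = 0.0655) and without replicate 2 labelled +/+ (0.0701).

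The mineralocorticoid receptor gene nr3c2 (ENSDARG00000102082.2, chromosome 1, 36935154 to 37087966, minus strand), whose product also binds cortisol in fish, was the lower of the receptor pair. Its values were 1.86, 1.70 and 2.37 TPM in libraries labelled +/+ and 2.74, 2.75 and 4.52 TPM in libraries labelled −/−. Again the groups did not overlap, with replicate 3 the highest library of each. The means were 1.97 ± 0.354 and 3.34 ± 1.03 TPM (SD, n = 3 each), and the limma log2 fold change was 0.61 ± 0.20 (SE), adjusted p = 0.0453. This was the call nearest to the threshold: it was lost after rescaling (log2 fold change 0.42, adjusted p = 0.0579), with quantile scaling (0.32, 0.0966), and without the filter on low values (0.0765). It was also lost without replicate 1 (0.134) or replicate 2 (0.150) labelled +/+ and without replicate 1 (0.0621) or replicate 3 (0.0953) labelled −/−. With the replicate block and rescaling together it passed (adjusted p = 0.0213). The ratio of nr3c1 to nr3c2 was 4.82 ± 0.177 in libraries labelled +/+ and 4.98 ± 0.876 in libraries labelled −/− (SD, n = 3 each; exact permutation p = 0.9).

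The 3 glucocorticoid-responsive genes did not move together. The leucine zipper gene tsc22d3 (ENSDARG00000075666.4, chromosome 14, 27998756 to 28001986, minus strand), known in mammals as the glucocorticoid-induced leucine zipper, stood at 67.2, 71.9 and 75.4 TPM in libraries labelled +/+ and at 99.5, 96.3 and 96.4 TPM in libraries labelled −/−. The libraries within each group lay close together and the groups stood clearly apart, at 71.5 ± 4.11 and 97.4 ± 1.85 TPM (SD, n = 3 each). The limma log2 fold change was 0.44 ± 0.08 (SE), adjusted p = 0.0108. It was lost without replicate 1 labelled +/+ (0.0596) or replicate 2 labelled +/+ (0.0623). After rescaling it was 0.22 (adjusted p = 0.0696) with the groups still apart, and with the replicate block and rescaling together it passed (0.0148). Another gene overlaps it on the same strand, at 8.82 to 9.83 TPM in libraries labelled +/+ and 7.79 to 11.3 TPM in libraries labelled −/−, so reads shared by the pair cannot be told apart here.

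The immunophilin gene fkbp5 (ENSDARG00000028396.5, chromosome 6, 41096058 to 41117242, plus strand) encodes a partner of Hsp90 that lowers the hormone binding of the glucocorticoid receptor and is itself induced through it. It stood at 79.3, 76.0 and 62.5 TPM in libraries labelled +/+ and at 73.3, 88.2 and 104 TPM in libraries labelled −/−. Replicate 1 labelled −/− lay below 2 libraries labelled +/+, so the groups overlapped. The limma log2 fold change was 0.28 ± 0.14 (SE), adjusted p = 0.150, and 0.05 after rescaling (adjusted p = 0.810). Differences between libraries of the same replicate number were −0.11, 0.21 and 0.73 (log2) for replicates 1, 2 and 3. Without replicate 3 of both groups the limma log2 fold change of fkbp5 was 0.05 (adjusted p = 0.690).

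The transcription factor gene klf9 (ENSDARG00000068194.4, chromosome 5, 26075230 to 26078165, plus strand), a Krüppel-like factor induced by glucocorticoids, was the only one of the 9 tested genes with a negative log2 fold change in the deposited TPM, where hsd11b2 and star joined it after rescaling. It stood at 66.5, 62.7 and 61.6 TPM in libraries labelled +/+ and at 48.5, 53.7 and 60.8 TPM in libraries labelled −/−. All libraries labelled −/− were lower, but replicate 3 of the 2 groups nearly met. The limma log2 fold change was −0.23 ± 0.10 (SE), adjusted p = 0.0950. It was called lower after rescaling (−0.45 ± 0.11, adjusted p = 0.0148), with FPKM in place of TPM (−0.33, 0.0271), without replicate 3 labelled −/− (−0.31, 0.0466) and without replicate 3 of both groups (−0.34, 0.0154). The authors' deposited table gave klf9 an adjusted p of 0.00845. The ratio of klf9 to tsc22d3, which no scaling of a whole library can change, was 0.989, 0.871 and 0.818 in libraries labelled +/+ and 0.487, 0.558 and 0.631 in libraries labelled −/−. The 2 groups of ratios did not overlap.

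Levels of the genes differed widely along the axis. On the TPM scale, which is per length, fkbp5 and tsc22d3 were the most abundant in libraries labelled +/+, at means of 72.6 and 71.5 TPM and with overlapping ranges. Next came klf9 (63.6), whose range overlapped that of fkbp5 but not that of tsc22d3, then hsd11b2 (21.6) and star (11.8). Below these were nr3c1 and crhb, whose ranges overlapped (9.50 and 9.47), and then pomca (4.10), nr3c2 (1.97) and mc2r (0.0305). In the libraries labelled −/−, tsc22d3 (97.4) and fkbp5 (88.4) again led with overlapping ranges. Below klf9 and hsd11b2, each of nr3c1, crhb, star and pomca overlapped the next in range, although every nr3c1 value lay above every pomca value and pomca was the lowest of these 4 within each of the 3 libraries. Among all tested genes, tsc22d3, fkbp5 and klf9 had a higher mean TPM than 94.6%, 94.3% and 92.2%, pomca lay near the middle at 49.1%, and nr3c2 exceeded 19.7%.

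Replicate 3 was higher than the other replicates of its group for the upper axis and the receptors, as it was for the median of all tested genes. That median, relative to each gene's own mean, was −0.19, −0.16 and 0.02 (log2) for the +/+ label and 0.10, 0.03 and 0.20 for the −/− label, in the order of replicates 1, 2 and 3. Relative to the mean of replicates 1 and 2, replicate 3 was higher for pomca by 0.42 (log2) in libraries labelled +/+ and 0.41 in libraries labelled −/−, for nr3c1 by 0.36 and 0.29, for crhb by 0.29 and 0.42, and for nr3c2 by 0.34 and 0.63. For tsc22d3 the values were 0.12 and −0.02, for klf9 −0.07 and 0.25, and for fkbp5 −0.31 and 0.37. Without replicate 3 of both groups, an alternative chosen after seeing the data, the same 5 genes were called higher and klf9 was called lower. Calls over all genes rose as well in that fit, from 8046 to 9797.

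Markers of neurons moved in the same direction as crhb, pomca and the receptor genes. Of 15 neuron markers, 12 were called higher and 0 lower, with a median log2 fold change of 0.93 and none listed at 0 TPM in all libraries. Among all tested genes 30.8% were higher and 8.76% lower. After rescaling 11 neuron markers were higher and 1 lower, where 22.8% and 21.6% of all tested genes were. The summed level of the neuron markers was 717 to 932 TPM in libraries labelled +/+ and 1114 to 1691 TPM in libraries labelled −/−, highest in replicate 3 of each group. Immediate-early genes, which cells switch on within minutes of stimulation, were also higher, at 12 of 15 tested, where 30.8% of all tested genes were. Their summed levels were 67.5 to 84.7 TPM against 164 to 370 TPM, highest in replicate 1 labelled −/−. Of 9 skin markers, 5 were called lower and 0 higher, and their summed level was 17620 to 19757 TPM against 14538 to 15603 TPM. Of 19 clock and light-regulated genes tested, 7 were higher and 1 lower, shares near the 30.8% and 8.76% of all tested genes. The part of any of these in the differences of the stress axis genes was not tested.

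Other pituitary markers were mostly too low to test. Of 11 matched genes listed for pituitary hormones and factors outside the corticotrophs, 4 reached the filter (cga, gh1, prl and pitx3). By limma 0 were called, where 30.8% of all tested genes were higher. With the replicate block 2 were called higher, where 45.6% of all tested genes were. In 1 of the 4 every library labelled −/− lay above every library labelled +/+, against 39.5% of all tested genes. With 4 genes these shares say little. Growth hormone gh1 stood at 14.7 to 17.4 TPM in libraries labelled +/+ and 13.1 to 20.5 TPM in libraries labelled −/−. Summed over the list the ranges were 27.0 to 32.9 TPM and 25.6 to 44.2 TPM, which overlapped, unlike those of pomca. The corticotroph factor gene tbx19 was under 1 TPM in every library.

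**Figure D3:**
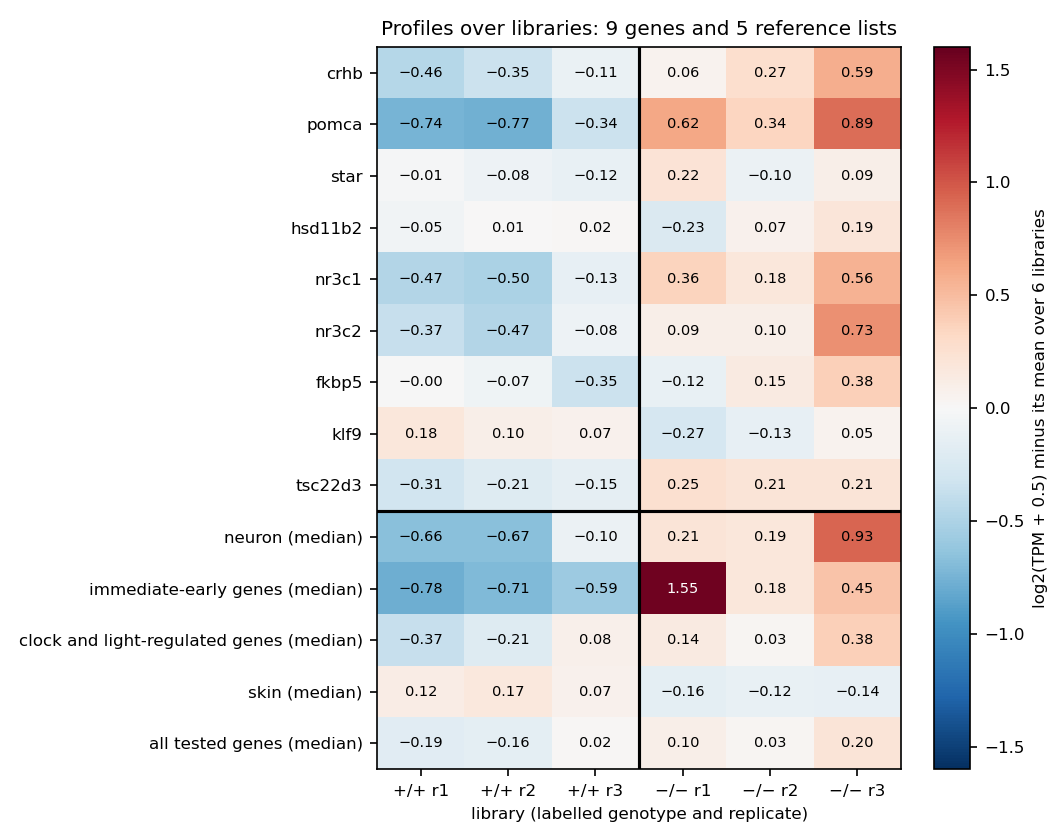
Level of each of the 9 tested genes in each of the 6 libraries, as log2(TPM + 0.5) minus the gene's own mean over the libraries (printed in each cell; red is higher, blue lower), above the median of the same quantity for 4 marker lists and all tested genes. Replicate 3 is the highest library of its group for pomca, crhb, nr3c1, nr3c2 and the neuron list, while tsc22d3 is even within each group. For klf9 the libraries labelled −/− are the lower ones, and replicate 3 is the lowest library labelled +/+ but the highest labelled −/−.

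Around the 10 genes, a wider list of stress hormones, their receptors, processing enzymes and transcription factors gave upward calls only among its tested genes. Of 26 entries, 24 matched a gene and 14 were tested. Among these, 10 were called higher and 0 lower, with a median log2 fold change of 0.88, and 9 stayed higher after rescaling. The called genes included the transcription factor genes nr4a1, otpa, otpb, sim1a and neurod1. The melanocortin receptor genes mc1r and mc5ra were tested and not called (limma adjusted p = 0.738 and 0.942). The corticotropin-releasing hormone receptor genes crhr1 and crhr2 were under the filter. The filter had a part in these counts: oxt and sim1a, both called higher, were under 1 TPM in every library labelled +/+. It also left out pomcb, with lower values in libraries labelled −/−, and crha, with higher ones. Among all tested genes, 30.8% were called higher and 8.76% lower as deposited, with a median of 0.22. After rescaling these shares were 22.8% and 21.6%. Fewer passed when a library was left out: 4 without replicate 1 of the +/+ group, 4 without its replicate 2, and 5 without replicate 1 labelled −/−. Calls over all genes fell as well in these fits, from 8046 to 606, 430 and 4062. The gene oxt, which encodes the fish oxytocin, rose from 0.231, 0.492 and 0.520 TPM to 3.09, 2.39 and 5.34 TPM (limma log2 fold change 2.12 ± 0.26 (SE), adjusted p = 0.00366). Its test rests on the filter being passed by libraries labelled −/− alone. The homeobox gene otpa, needed for neuroendocrine neurons of the hypothalamus, rose from 3.28, 2.63 and 4.76 TPM to 10.2, 12.1 and 21.6 TPM (1.86 ± 0.29, 0.00858). These are hypothalamic genes that stand beside crhb, and both had larger log2 differences than crhb.

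Prohormone processing followed the same direction. The carboxypeptidase gene cpe, whose product trims peptide hormones, stood at 13.5, 13.9 and 18.9 TPM against 27.6, 30.1 and 40.8 TPM (1.06 ± 0.18 (SE), limma adjusted p = 0.0103; 0.0518 and 0.0576 without replicate 1 or 2 labelled +/+). The prohormone convertase gene pcsk1, whose enzyme cuts proopiomelanocortin and other precursors, stood at 3.81, 4.70 and 5.85 TPM against 9.80, 11.4 and 18.5 TPM (1.34 ± 0.24, 0.0118; 0.0549 and 0.0594 without replicate 1 or 2 labelled +/+). The ratio of pomca to pcsk1 was 0.862 ± 0.099 and 0.815 ± 0.198 (SD, n = 3 each; exact permutation p = 0.7). The nuclear receptor gene nr4a1, which activates proopiomelanocortin transcription in mammals and is also an immediate-early gene, rose from 6.16, 5.61 and 5.35 TPM to 16.7, 12.7 and 14.9 TPM (1.29 ± 0.13 (SE), limma adjusted p = 0.00142).

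Of 20 entries for interrenal steroid synthesis and cortisol turnover, 16 matched a gene and 11 were tested. Among these 4 were called higher and 3 lower, before and after rescaling, where 30.8% of all tested genes were higher and 8.76% lower as deposited. After rescaling, 22.8% of all tested genes were higher and 21.6% lower. As deposited, the list thus held upward calls at about the share of all genes and downward calls above it, on 11 genes only. Its median log2 fold change was 0.12 as deposited and −0.08 rescaled. Without replicate 1 or replicate 2 labelled +/+, 2 were higher and 1 lower in each fit, and without replicate 3 labelled −/− 2 were higher. These fits also held fewer calls over all genes, 606, 430 and 4155 against 8046. The entries for the side-chain cleavage enzyme matched no symbol and were not analysed here.

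Of its 3 lower calls, hsd11b1la had the largest log2 difference. It stood at 32.4, 32.5 and 31.9 TPM in libraries labelled +/+ and at 19.8, 20.9 and 19.9 TPM in libraries labelled −/− (limma log2 fold change −0.66 ± 0.08 (SE), adjusted p = 0.00339, called in all 6 fits without 1 library). Beside it, hsd11b2 gave a ratio to hsd11b1la of 0.645, 0.671 and 0.691 in libraries labelled +/+ and 0.930, 1.09 and 1.25 in libraries labelled −/−. The ratio was thus higher in every library labelled −/− while hsd11b2 itself was not called. The ferredoxin gene fdx1, which encodes a mitochondrial electron carrier, stood at 82.6, 77.7 and 80.7 TPM against 58.4, 67.5 and 57.9 TPM. It was called lower (limma log2 fold change −0.39 ± 0.09 (SE), adjusted p = 0.0176, but 0.0793 and 0.0725 without replicate 1 or 2 labelled +/+). The gene hsd20b2, whose enzyme also inactivates cortisol in zebrafish, stood at 12.2 ± 0.433 against 9.80 ± 0.629 TPM (SD, n = 3 each; limma log2 fold change −0.30, adjusted p = 0.0468). Its call was absent from every fit without 1 library (0.0697 to 0.152).

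The upward calls of that list were nr0b1, fdxr, cyp11c1 and cyp17a2. The nuclear receptor gene nr0b1, a repressor of steroid synthesis genes in mammals, rose from 2.20, 2.98 and 3.24 TPM to 5.62, 5.71 and 6.85 TPM (limma 1.00 ± 0.16 (SE), adjusted p = 0.00906). The ferredoxin reductase gene fdxr rose from 4.38, 6.23 and 8.20 TPM to 12.6, 11.2 and 16.1 TPM (1.05 ± 0.22, 0.0159; 0.0604 and 0.0686 without replicate 1 or 2 labelled +/+). The gene cyp11c1, whose enzyme makes cortisol in the last step, was near the filter at 0.704, 0.769 and 1.01 TPM against 1.21, 1.46 and 1.84 TPM (0.59 ± 0.16, 0.0262). It was lost without replicate 1 (0.101) or replicate 2 (0.0964) labelled +/+ and without replicate 3 labelled −/− (0.0626). The gene cyp17a2, a hydroxylase of the cortisol route, stood at 0.568, 0.455 and 0.445 TPM against 1.69, 1.22 and 2.01 TPM (1.097 ± 0.16, 0.00738). With every value labelled +/+ under 1 TPM, cyp17a2 passed the filter only through libraries labelled −/−. It shares its locus with the immediate-early gene egr4 on the opposite strand, which stood at 1.06, 1.32 and 1.78 TPM against 14.2, 4.04 and 5.44 TPM, and the part of egr4 reads in cyp17a2 was not tested.

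The remaining steroid genes that reached 1 TPM were not called. The lipoprotein receptor gene scarb1 had a limma adjusted p of 0.250, but passed without replicate 3 labelled +/+ (0.0430). The genes cyp17a1 (4.70 and 5.18 TPM, adjusted p = 0.425), tspo (78.9 and 81.8 TPM, 0.606) and fdx1b (1.162 and 0.916 TPM, 0.330) had group means given here in the order +/+ and −/−. The hydroxylase gene cyp21a2 stood at 0.677, 0.657 and 0.592 TPM against 0.961, 0.922 and 1.02 TPM, under the filter. Together with star, these genes were measured in whole larvae, where the interrenal gland is a small part of the tissue.

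Chaperones and cofactors of the steroid receptors were higher or not called in the deposited TPM. Of 14 entries, 11 matched and were tested, with 6 called higher, 0 lower and a median log2 fold change of 0.51. Among all tested genes, 30.8% were called higher and 8.76% lower, with a median of 0.22. After rescaling 6 were higher and bag1 was lower, where 22.8% and 21.6% of all tested genes were. By limma with the replicate block, bag1 was also called lower (log2 fold change −0.23, adjusted p = 0.0221), as were 13.3% of all tested genes. The 6 upward calls fell to 0 without replicate 1 or replicate 2 labelled +/+, to 1 without replicate 1 labelled −/− and to 2 without replicate 3 labelled −/−. Over all genes, calls fell from 8046 to 606, 430, 4062 and 4155 in the same fits. The heat shock protein gene hsp90ab1, whose product holds the receptors ready for hormone, stood at 1077, 1130 and 1405 TPM against 1721, 1572 and 2173 TPM (limma 0.59 ± 0.14 (SE), adjusted p = 0.0204). The coactivator gene ncoa2 stood at 6.49, 7.07 and 9.95 TPM against 12.4, 11.3 and 16.8 TPM (0.75 ± 0.20, 0.0245). The gene hspa4a, which encodes a relative of the Hsp70 chaperones, stood at 18.0, 18.0 and 25.1 TPM against 33.7, 26.3 and 34.8 TPM (0.63 ± 0.16, 0.0240).

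The immunophilin gene fkbp4, which competes with fkbp5 for Hsp90 and favours receptor transport, was called higher while fkbp5 was not. It stood at 42.5, 47.6 and 57.9 TPM against 69.6, 64.5 and 75.6 TPM (limma 0.51 ± 0.12 (SE), adjusted p = 0.0210). The ratio of fkbp5 to fkbp4 was 1.51 ± 0.398 in libraries labelled +/+ and 1.26 ± 0.183 in libraries labelled −/− (SD, n = 3 each; exact permutation p = 0.4), so a difference between the 2 immunophilins was not shown. Without replicate 1 or 2 labelled +/+, hsp90ab1, ncoa2, hspa4a and fkbp4 all missed the threshold (limma adjusted p between 0.0834 and 0.0946). Without replicate 1 labelled −/−, fkbp4 (0.0533), hspa4a (0.0674) and ncoa2 (0.0536) also did, as did hspa4a (0.0564) and ncoa2 (0.0535) without replicate 3 labelled −/−.

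Of 34 entries for genes known to respond to glucocorticoids in vertebrates, 30 matched a gene and 28 were tested, with 15 higher, 2 lower and a median log2 fold change of 0.47. Among all tested genes 30.8% were higher and 8.76% lower, so the lower calls lay near the share of all genes. After rescaling 12 were higher and 4 lower, where 22.8% and 21.6% of all tested genes were. With the replicate block 18 were higher, as were 45.6% of all tested genes. Without replicate 1 labelled +/+ 5 were higher and 0 lower, and without replicate 2 labelled +/+ 4 and 0. Over all genes, 606 and 430 were called in those fits, against 8046 with every library. 1 lower call was left without replicate 2 or replicate 3 labelled −/−. The list shares junba with the immediate-early genes and per1a and per1b with the clock genes.

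By p-value the first of these calls was ddit4, an inhibitor of growth signalling through mTOR, although socs3a (1.70) and dusp1 (1.46) had larger log2 fold changes than its 1.43. Both missed the limma threshold without replicate 1 or 2 labelled +/+ (adjusted p 0.0658 and 0.0684 for socs3a, 0.0534 and 0.0576 for dusp1). In libraries labelled −/−, socs3a stood at 53.4, 21.4 and 17.2 TPM and dusp1 at 55.1, 28.4 and 28.4 TPM. Without replicate 1 labelled −/− their log2 fold changes were 1.22 and 1.14, under the 1.35 of ddit4. The gene ddit4 stood at 12.5, 13.6 and 13.9 TPM in libraries labelled +/+ and at 41.1, 34.0 and 35.4 TPM in libraries labelled −/− (limma log2 fold change 1.43 ± 0.10 (SE), adjusted p = 2.6e-04). The growth factor receptor inhibitor gene errfi1a rose from 9.48, 9.71 and 12.6 TPM to 22.0, 20.1 and 24.2 TPM (1.03 ± 0.14, 0.00464). The insulin-like growth factor binding protein gene igfbp1a rose from 7.30, 6.58 and 9.70 TPM to 20.5, 15.9 and 16.3 TPM (1.12 ± 0.17, 0.00724). The transcription factor gene cebpd rose from 97.0, 96.5 and 99.5 TPM to 254, 174 and 169 TPM (1.00 ± 0.15, 0.00761). The genes ddit4, errfi1a, igfbp1a and cebpd were called in each of the 6 fits without 1 library, and ddit4, cebpd and igfbp1a were highest in replicate 1 labelled −/−, the library with the highest immediate-early sum.

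Genes of the list also fell or were not called. The glutamine synthetase gene glula had group means of 309 and 238 TPM (limma log2 fold change −0.38, adjusted p = 0.0176; 0.0765 and 0.0748 without replicate 1 or 2 labelled +/+). The lipase inhibitor gene angptl4 had means of 79.5 and 64.0 TPM (−0.32, 0.0354), a call lost without replicate 1 (0.117) or 2 (0.114) labelled +/+ and without replicate 2 (0.0783) or 3 (0.0880) labelled −/−. The kinase gene sgk1, a classical mineralocorticoid and glucocorticoid target, had means of 26.2 and 36.6 TPM and was called higher as deposited (0.48, 0.0315) but not after rescaling (0.0830), nor without replicate 1 (0.0935) or 2 (0.109) labelled +/+ or replicate 1 (0.0820) or 3 (0.0751) labelled −/−. The gene pdk4, a metabolic kinase, was not called (0.12, 0.442).

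**Figure D4:**
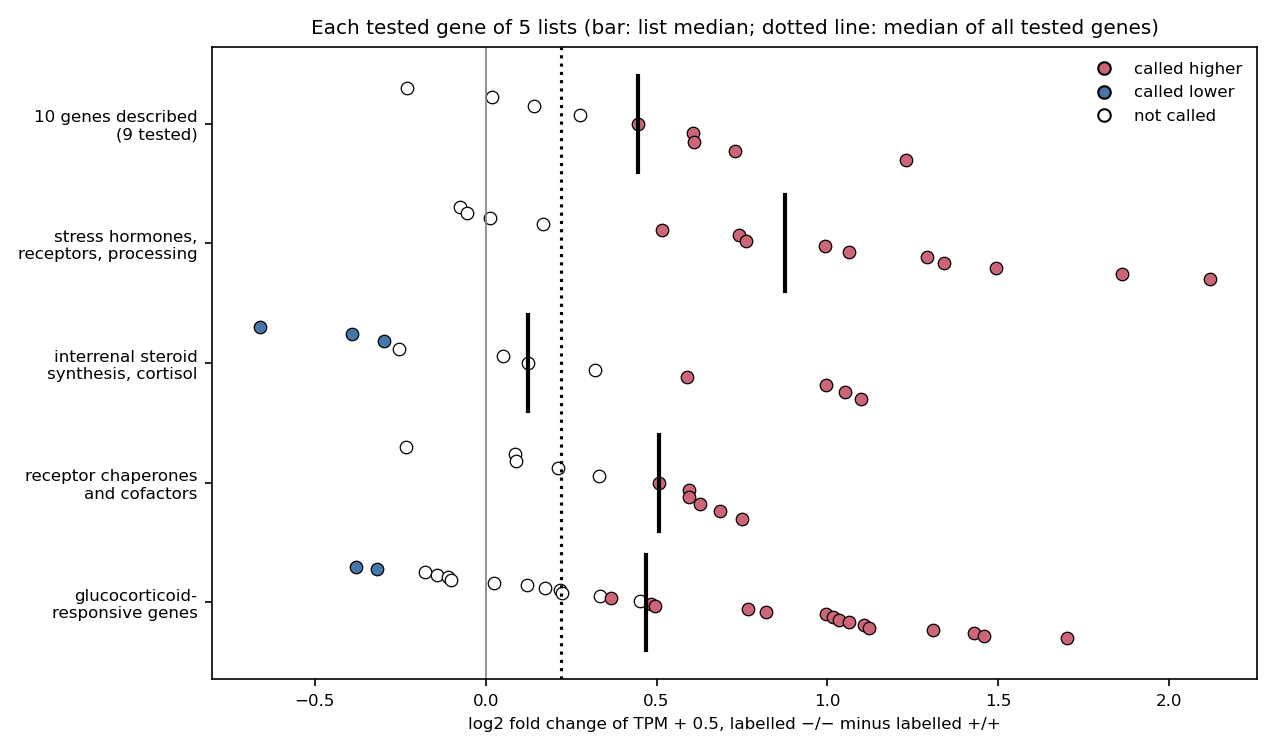
Log2 fold change of TPM + 0.5, labelled −/− minus labelled +/+ (horizontal axis), for each tested gene of the set of 10 and of 4 lists (rows), coloured by the limma call; the bar is the list's median and the dotted line the median of all tested genes, 0.22. Downward calls appear in the steroid synthesis list (3) and the glucocorticoid-responsive list (2). The list of stress hormones, receptors and processing, which also holds transcription factor genes, has the highest median, 0.88.

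Ratios between genes of one library are free of any scaling of the whole library, and 8 were computed, chosen after the values had been seen. The groups did not overlap for 5 of them, each with exact permutation p = 0.1 (0.16 after Benjamini-Hochberg adjustment over the 8). Those with pomca and crhb were pomca to crhb at 0.431 ± 0.034 and 0.704 ± 0.124, pomca to pomcb at 4.38 ± 1.55 and 17.4 ± 3.92, and crhb to crhbp at 0.420 ± 0.057 and 0.683 ± 0.146 (means ± SD, n = 3 each, +/+ first). The other 2 were hsd11b2 to hsd11b1la, 0.669 ± 0.023 and 1.09 ± 0.158, and klf9 to tsc22d3, 0.893 ± 0.088 and 0.559 ± 0.072. Non-overlap was also common among single genes: 39.5% of all tested genes were higher in every library labelled −/−, and 16.3% were lower. No such share was computed over other gene pairs. As the pairs were chosen with the values known, the 5 separations add no separate evidence of a difference.

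**Figure D5:**
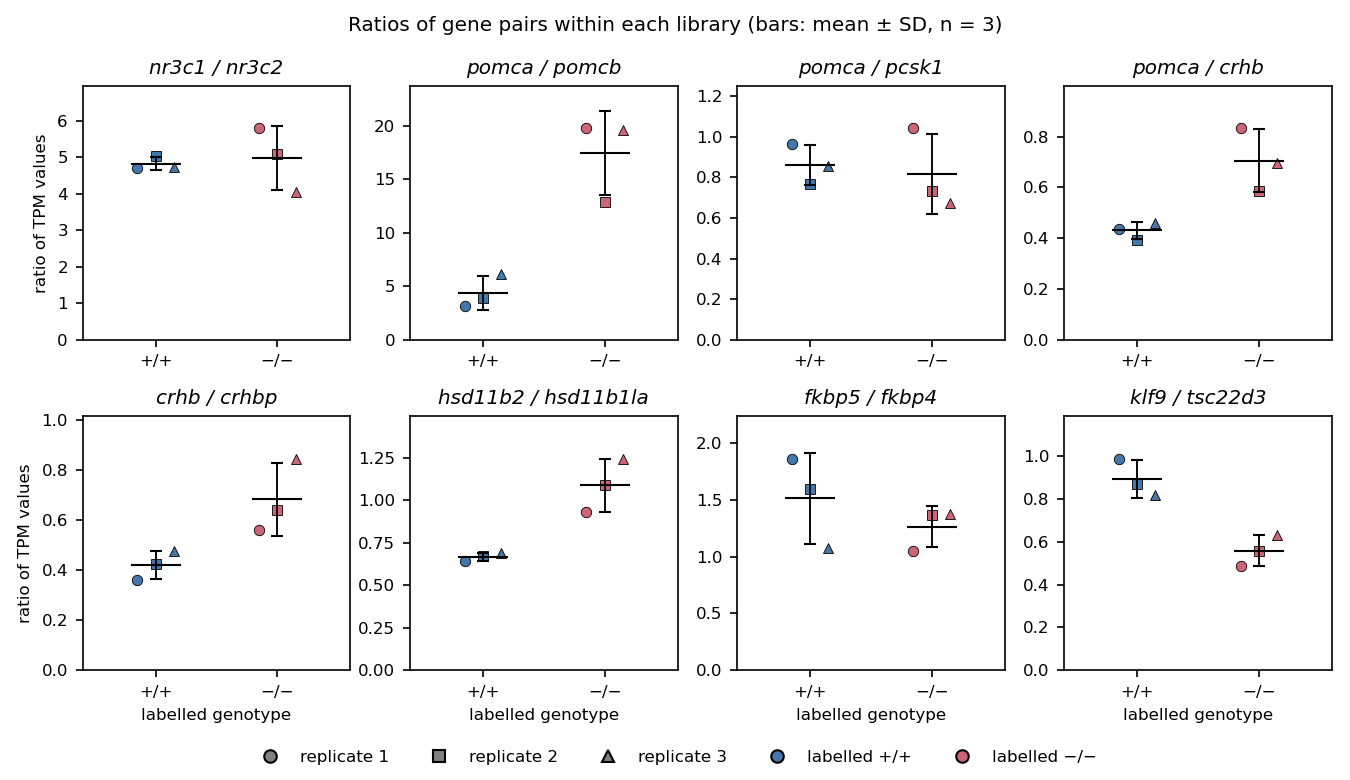
Ratio of TPM values of 2 genes within each library (vertical axis, from 0) for 8 gene pairs, in libraries labelled +/+ (blue) and −/− (red), with mean ± SD of 3 libraries. The groups stand apart for pomca to pomcb, pomca to crhb, crhb to crhbp, hsd11b2 to hsd11b1la and klf9 to tsc22d3, and overlap for nr3c1 to nr3c2, pomca to pcsk1 and fkbp5 to fkbp4.

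The authors' own test called some of these genes and not others. In the authors' deposited table pomca (log2 fold change −1.10 ± 0.16 (SE), adjusted p = 1.41e-09), nr3c1 (−0.55, 1.35e-05), nr3c2 (−0.49, 0.0148) and klf9 (0.42, 0.00845) had an adjusted p under 0.05. In the same deposited table crhb (−0.39, 0.0814) and tsc22d3 (−0.25, 0.0880) did not, nor did fkbp5 (−0.03, 0.946), hsd11b2 (0.17, 0.491) and star (0.04, 0.933). The deposited table does not state its direction. It lists stim2a at −1.73 and stim2b at −1.19, so its negative values are those of genes that stood higher in libraries labelled −/−. On that reading the signs match those of the rescaled TPM for all 9 tested genes. The authors' comparison covers the same 2 labelled groups, so this match is not independent support.

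The pomca and nr3c2 profiles had the widest range over the 6 libraries among the 9 tested genes, 1.66 and 1.19 on the log2 scale, and their nearest profiles were sought among 16142 named genes. Closest to pomca, by root mean square distance of log2(TPM + 0.5) around each gene's mean over 6 libraries, were khsrp (0.027), onecutl (0.049) and shc3 (0.063), against a median distance of 0.519 over all genes. The nearest, khsrp, stood at 17.9, 17.1 and 22.5 TPM and at 46.4, 38.2 and 55.0 TPM. Closest to nr3c2 were zbtb25 (0.018), mazb (0.027) and kctd3 (0.030), with a median of 0.290. With only 6 libraries in 2 groups, these names describe likeness of the centred profile over libraries, not of level, and nothing more.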

How the data were processed

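Polyadenylated RNA of 6 pooled samples was sequenced in stranded, paired-end libraries, per the labels' protocols. Groups and replicate numbers came from the labels. Tools named in the submitters' processing notes are DESeq2 1.16.1, StringTie 1.3.3b and STAR 2.5.3a, with the builds hg38 and danRer11; which did what is not said. The deposited abundance tables hold, per the file headers, coverage (a mean signal per base), FPKM and TPM for each gene; no source used here says how reads of near-identical genes were shared out. The authors' comparison table holds, per the file headers, a mean normalized signal, a log2 fold change with a standard error (a score without fixed range) and adjusted p-values.

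No deposited file gives counts per sample here, and the test was therefore limma 3.58.1 in R 4.3.3 (lmFit, then eBayes with a mean trend). Its input was log2(TPM + 0.5) of 20330 genes that reached 1 TPM in 3 or more libraries, adjusted by Benjamini-Hochberg over all of them; calls have an adjusted p under 0.05. This scale understates changes of low genes. TPM are shares, so a change in abundant genes moves all others; the alternatives therefore include rescaling by the median gene ratio, quantile scaling and FPKM, besides other pseudocounts and filters, a replicate block and leaving out libraries. Symbols were looked up by Ensembl identifier, with paralogs told apart by chromosome in RefSeq GRCz12tu names; 181 of 196 list entries matched. Other tables were made with Python 3.11.15, pandas 2.3.3 and SciPy 1.17.1, and the fit was tested on simulated data. There it called 55% of genes given a log2 change of 1 and 95% of those given 2, with noise drawn separately for each gene. A gene that was not called may therefore still differ.

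The 10 genes and the gene lists were chosen with earlier results of these data known. Named beside them are, of each pathway list, the 4 tested genes with the smallest p and all steroid synthesis genes with 1 TPM in any library, plus the 3 nearest profiles of the 2 genes with the widest range. Further genes (pomcb, crha, crhbp, mrap, tbx19, pcsk1, sim1a, otpb, neurod1, mc1r, mc5ra, crhr1, crhr2, gh1, egr4, bag1, glula, angptl4, sgk1, socs3a, dusp1 and pdk4) were named after their values were seen.

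Equal replicate numbers were checked for pairing by the correlation, across genes, of library deviations from their group mean: 0.25, 0.19 and 0.48 for replicates 1, 2 and 3, each over 0.1, the limit set. No label names a shared clutch, and replicate 1 labelled +/+ reached 0.29 with replicate 2 labelled −/−, so the pairing rests on the data alone.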

Additional observations from a re-analysis of the deposited data

How the results depend on the processing

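Rescaled by the median gene ratio, 3 of the 10 genes were called higher and 1 lower, against 5 and 0 as deposited. Over all tested genes 22.8% were then higher and 21.6% lower, against 30.8% and 8.76% as deposited. The gene klf9 was also called lower with FPKM and with the replicate block and rescaling together. In those fits 8503 and 11730 genes were called in all, against 8046 as deposited. Of hsd11b2, the log2 fold change of 0.02 turned to −0.20 rescaled (with or without the replicate block), −0.14 with quantile scaling and −0.080 with FPKM, and that of star from 0.14 to −0.076 rescaled (likewise with the block) and −0.10 with quantile scaling. The replicate block alone changed no call of the 9 tested genes; it brought the adjusted p of pomca to 2.18e-04 and that of crhb to 0.0010. Lower calls rose to 4 in the glucocorticoid-responsive list after rescaling, to 1 among the receptor chaperones with rescaling, quantile scaling or the replicate block, and to 1 among the stress hormones with quantile scaling. Over all tested genes, lower calls rose from 8.76% to 21.6% after rescaling and to 13.3% with the replicate block. With quantile scaling 8390 genes were called in all. With a mean of at least 5 TPM required, 5238 genes were called in place of 8046. That filter tests fewer genes. Rescaling divided replicates 1, 2 and 3 labelled +/+ by 0.876, 0.890 and 1.02 and those labelled −/− by 1.07, 1.02 and 1.15. By construction this moved log2 fold changes down, and the median of all tested genes went from 0.22 to 0.02. The cause of the other shifts was not tested.

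Leaving out libraries, singly or replicate 3 of both groups, gave 430 to 9797 called genes, and 1 to 5 higher and 0 to 1 lower calls among the 10 genes. The fewest came without replicate 2 labelled +/+ (430 genes) and replicate 1 labelled +/+ (606). Higher calls ranged from 4 to 18 in the glucocorticoid-responsive list, 2 to 5 in steroid synthesis, 0 to 6 among chaperones and 4 to 10 among stress hormones; lower calls ranged from 0 to 2 in the first list and 1 to 3 in the second, with 0 in the last 2 lists. Of hsd11b2 the values were −0.073 to 0.14. Depth is not known from TPM, and low genes such as mc2r rest on few reads.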

Other observations

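Outside the stress axis lists, the clock and light-regulated genes held 7 upward calls and 1 downward call among 19 tested, shares near those of all tested genes (30.8% higher and 8.76% lower). The repressor gene nr1d2a stood at 10.9, 9.92 and 10.7 TPM in libraries labelled +/+ and at 21.0, 20.1 and 24.1 TPM in libraries labelled −/− (limma log2 fold change 1.01, adjusted p = 0.00165). The period gene per3 stood at 1.15, 1.38 and 1.17 TPM against 2.61, 2.82 and 2.67 TPM (0.89, 0.00539). The glucocorticoid-responsive clock gene per1b was under the filter, at 0.303, 0.266 and 0.477 TPM against 0.850, 0.629 and 1.21 TPM. These genes were named after their values were seen.

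Liver markers gave 1 upward and 3 downward calls among 8, where 30.8% of all tested genes were higher and 8.76% lower. After rescaling 0 were higher and 4 lower, where 22.8% and 21.6% of all tested genes were. The deposited TPM of fabp10a stood at 2104, 2192 and 2078 against 1601, 1622 and 1437 (limma log2 fold change −0.45, adjusted p = 0.00983; 0.0518 and 0.0617 without replicate 1 or 2 labelled +/+). The liver-expressed binding protein gene igfbp1a ran in the other direction in the same libraries.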
